A study of Mus musculus with 48 samples.

Results

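Transcripts of 37 genes for cytokine and chemokine ligands, the secreted proteins by which cells call in and instruct immune cells, were followed in cultured mouse kidney slices. The genes were a set list of mouse symbols, and all 37 were found among the 55487 gene IDs of the deposited count table. Kidneys were taken from males of C57BL/6J and of DBA/2J, the inbred founder strains of the BXD genetic reference panel, and the slices were treated outside the body. The 48 libraries formed 16 groups of 3, from 2 strains and 8 conditions. Control slices, slices given tunicamycin (a blocker of protein N-glycosylation that stresses the endoplasmic reticulum) and slices given cyclosporin A (a calcineurin inhibitor that can harm the kidney) were each taken at 6 h and at 24 h. A further pair of conditions, with 24 h in the titles, are normoxia, which the labels call an ischemia model, and normoxia-hyperoxia, called a reperfusion model. No group carries an engineered allele. The labels do not give the dose of either drug, the oxygen in which controls were kept, when oxygen was switched, or how old the mice were. The controls belong to the drug part of the study, so in any comparison with them the oxygen condition and the part of the study cannot be told apart. The labels number biological replicates but do not say whether slices came from separate mice, so p-values measure the spread between these samples.

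Cytokines act through receptors on nearby cells: the interleukin-1 family starts inflammatory signalling, the interleukin-6 family signals through the shared receptor chain gp130, and the colony-stimulating factors keep and mature myeloid cells. Chemokines form gradients that guide leukocytes, with the CXCR2 ligands drawing neutrophils, the CXCR3 ligands drawing activated T cells and the CC ligands drawing monocytes, macrophages and lymphocytes. In the kidney, injured tubule cells, resident macrophages, endothelium and fibroblasts can all make such ligands, and many of the genes carry promoter sites for the transcription factors NF-kappaB and AP-1.

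Promoter sequences from RefSeq (GRCm38.p6), running from 250 bases before to 50 bases after a transcription start, were matched for 26 of the 37 genes. Both strands were searched for GGGA, any base and TTTCC in a row, a form of the NF-kappaB motif, and for TGANTCA, the AP-1 motif, where N is any base.  The NF-kappaB letters stood in 135 of all 32851 promoters of that length (0.411%). Among the 32 promoters of the matched ligand genes they stood in 6, those of Il6, Il16, Csf1, Cxcl1, Cxcl2 and Cxcl3. The windows of 5 of these are shown because their transcripts were among those near 0 under normoxia or fell there by the fits given below, and that of Il16 because its transcript did not fall. Each is written 5′ to 3′ on the strand of its gene, with the matched letters in capitals. In Csf1 the match is on the opposite strand, so its capitals are the reverse complement. Where a gene has several starts, the window belongs to 1 of them.
Cxcl1, chr5:90891149-90891208, plus strand: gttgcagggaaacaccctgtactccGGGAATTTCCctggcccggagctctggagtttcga
Cxcl2, chr5:90903777-90903836, plus strand: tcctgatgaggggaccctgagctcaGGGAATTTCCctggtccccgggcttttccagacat
Cxcl3, chr5:90786003-90786062, plus strand: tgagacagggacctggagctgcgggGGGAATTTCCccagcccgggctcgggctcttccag
Il6, chr5:30013045-30013104, plus strand: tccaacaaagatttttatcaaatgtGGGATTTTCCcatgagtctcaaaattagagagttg
Csf1, chr3:107760589-107760648, minus strand: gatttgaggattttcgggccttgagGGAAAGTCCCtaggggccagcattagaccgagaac
Il16, chr7:83655510-83655569, minus strand: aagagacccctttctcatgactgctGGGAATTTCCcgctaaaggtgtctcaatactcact
The match began 71 bases before the start of Cxcl1, 97 before that of Cxcl2, 73 before that of Cxcl3, 44 before that of Il6, 154 before that of Csf1 and 49 before that of Il16. The AP-1 letters were commoner, in 7.81% of all promoters. They stood in 9 of the 32 promoters of the 26 matched ligand genes, those of Il1a, Il1rn, Il6, Il11, Lif, Il16, Cxcl9, Cxcl10 and Ccl28. The windows of 3 of these are shown because their transcripts made the large moves described below. Of the genes not shown, Ccl28 and Cxcl9 were higher under normoxia than at 24 h, and the change of Il16 did not pass.
Il1rn, chr2:24336694-24336750, plus strand: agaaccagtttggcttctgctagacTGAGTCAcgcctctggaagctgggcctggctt
Il11, chr7:4778208-4778264, minus strand: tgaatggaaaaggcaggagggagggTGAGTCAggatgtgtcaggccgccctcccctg
Lif, chr11:4257318-4257371, plus strand: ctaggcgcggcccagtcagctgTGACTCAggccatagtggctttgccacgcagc
A match of letters is a description of the sequence. Binding of a factor was not measured here.

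The libraries held between 5619309 and 25137581 counts. The lowest total was that of DBA/2J normoxia-hyperoxia replicate 2, and the next lowest was 12384733. Levels are given as CPM, counts scaled to a common library total, and values of single libraries are listed in the order of replicates 1, 2 and 3, with C57BL/6J before DBA/2J wherever a pair of values or of triplets is given. Each group has n = 3. Kidney markers were present in all groups, but their levels moved with the conditions. The 7 proximal tubule markers summed to 4352 and 7621 CPM in 6 h controls, 561 and 1803 CPM at 24 h, 7971 and 15175 CPM under normoxia, and 191 and 796 CPM under normoxia-hyperoxia. The 10 macrophage markers summed to 199 and 242 CPM at 6 h, 253 and 310 CPM at 24 h, 281 and 212 CPM under normoxia, and 297 and 537 CPM under normoxia-hyperoxia, with none at 0. The 8 neutrophil markers summed to means between 1.36 and 5.72 CPM in these 8 groups. The defining gene Ly6g was at 0 in all of these groups but the C57BL/6J 24 h controls, and other markers of the list moved in both directions, as given with the CXCR2 ligands. The share of counts from mitochondrial genes was 15.4% and 8.16% in 6 h controls, 6.82% and 3.52% in 24 h controls, 23.9% and 12.3% under normoxia, and 14.1% and 13.7% under normoxia-hyperoxia. The part of these differences in the results below was not tested, and in whole slices fewer cells of a type and less RNA per cell cannot be told apart.

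Summed over all 37 genes, ligand transcripts stood at 1186 ± 311 and 1127 ± 101 CPM in 6 h controls, and at 1723 ± 153 and 1848 ± 149 CPM in 24 h controls (SD, n = 3 each). Under normoxia both strains stood at 328 CPM (SD 19.5 and 31.5, n = 3 each). Under normoxia-hyperoxia the sums were 1608 ± 31.9 and 1846 ± 217 CPM (SD, n = 3 each). All 6 normoxia libraries, at 303 to 364 CPM, lay below the lowest of the control and normoxia-hyperoxia libraries, which was 943 CPM. Per kilobase of exon, Cxcl10 led in C57BL/6J 6 h controls at 92.0 CPM per kb, and Cxcl1 led in DBA/2J 6 h controls at 59.9 CPM per kb. Under normoxia the leaders were Cx3cl1 in C57BL/6J at 23.3 CPM per kb and Il34 in DBA/2J at 32.5 CPM per kb.

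**Figure D1:**
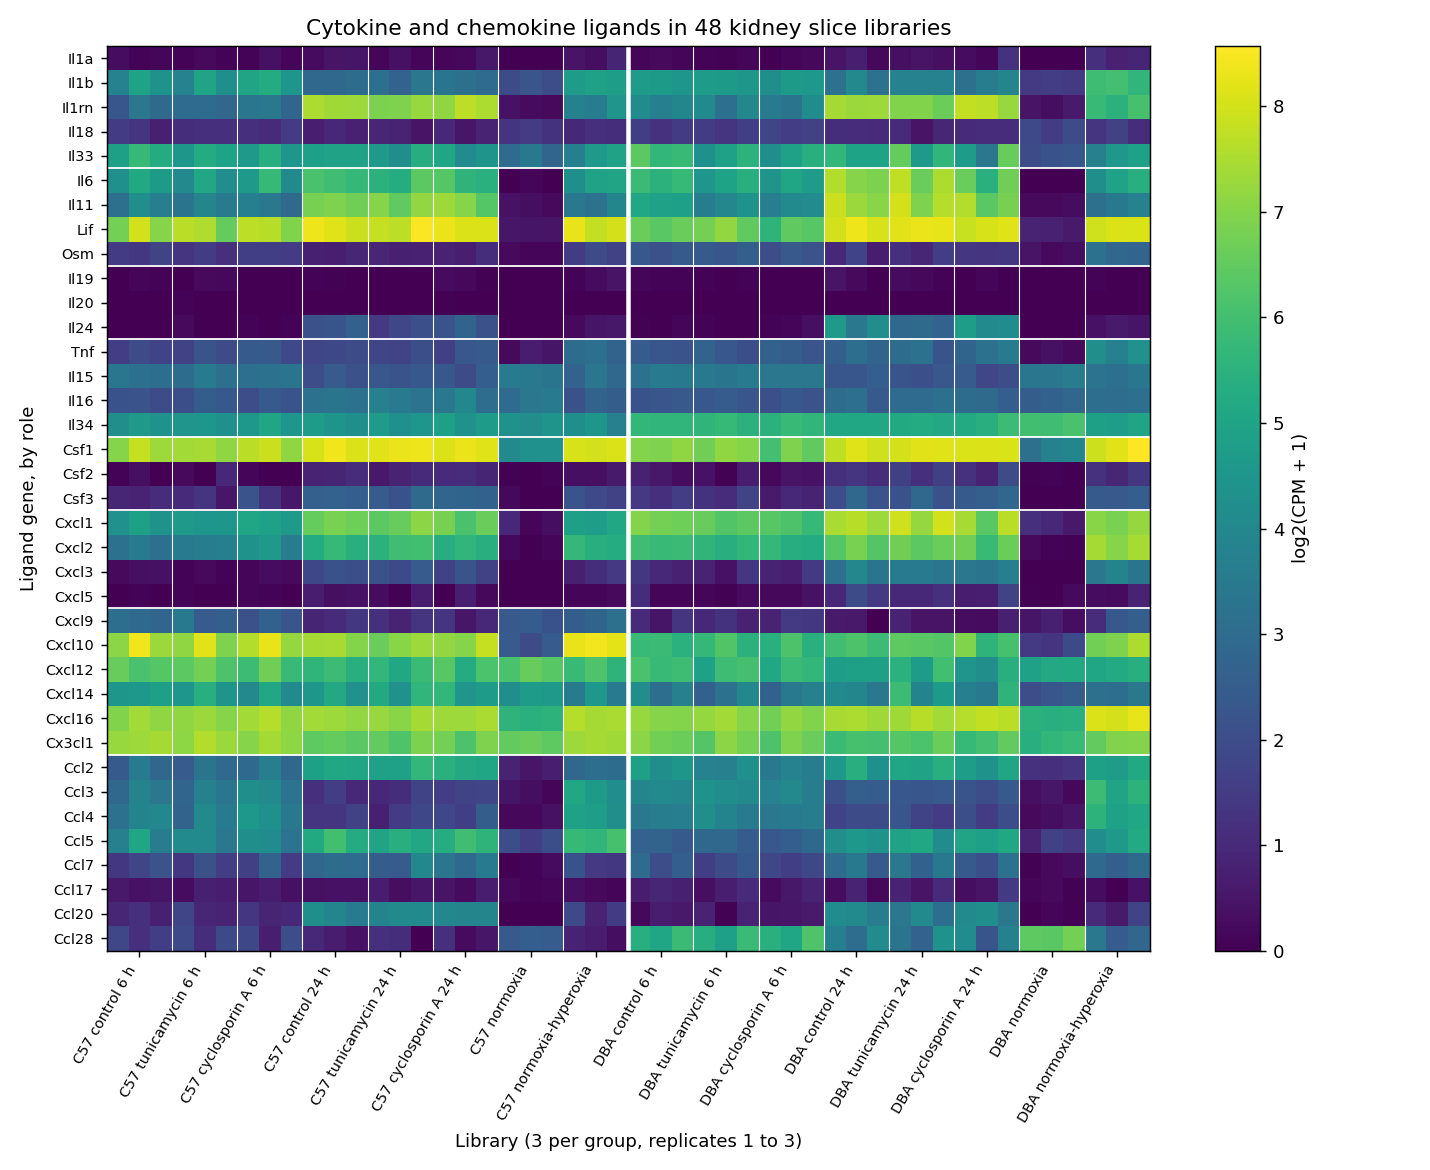
Levels of the 37 ligand genes (rows, by role) in the 48 libraries (columns, 3 per group, C57BL/6J on the left and DBA/2J on the right), coloured by log2(CPM + 1). The columns of the 6 normoxia libraries stand out as low for most genes, with sums of 303 to 364 CPM, while Cxcl12, Cx3cl1, Cxcl16 and, in DBA/2J, Il34 and Ccl28 keep levels of at least 28.8 CPM in each.

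Each comparison was fitted over all genes with edgeR's quasi-likelihood test on 12 libraries, 6 per condition, and the fold change is the mean of both strains. A gene counted as called at a Benjamini-Hochberg adjusted p under 0.05. Between 6 h and 24 h in control slices, 29 of 34 ligand genes tested were called, 17 higher and 12 lower, where 72% of all genes tested were called (34.7% higher and 37.4% lower). Their median log2 fold change was 0.41, against -0.02 for all genes. Under normoxia against 24 h controls, 31 of 33 were called, 6 higher and 25 lower, where 82% of all genes were called (42.4% higher and 39.7% lower). Here the ligands' median log2 fold change was -3.62, or -3.53 with genes at 0 set to their bound, against 0.05 for all genes. Genes at or near 0 counts under normoxia, such as Il24, Cxcl3 and Csf2, passed the filter on low counts through the 24 h controls alone. They could only come out lower, and setting bounds does not change this. Most genes were called among the ligands and among all genes alike, and the sizes and direction of the ligand changes are given as a description. The ligand genes were chosen with earlier results of these data known, so setting their median against that of all genes is not a test.

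Under normoxia against 6 h controls, 28 of 31 ligand genes were called, 2 higher and 26 lower, where 65.8% of all genes were called (32.9% in each direction). Under normoxia-hyperoxia against normoxia, 29 of 32 were called, 25 higher and 4 lower, where 73.5% of all genes were called (37% higher and 36.5% lower), and the median was 4.25 (4.17 with bounds) against 0.02. Genes at or near 0 counts under normoxia, such as Il6 and Cxcl3, could only come out higher here, and only lower when normoxia was set against controls. Under normoxia-hyperoxia against 24 h controls, 25 of 34 were called, 15 higher and 10 lower, where 68.2% of all genes were called (34.1% in each direction). This last split became 12 higher and 13 lower when libraries were scaled by their total counts, which shifted the median of all genes to -0.17. These comparisons share libraries with one another, so each is given by its own values. Il19 and Il20 passed the filter on low counts in no comparison. Il20 held 2 counts in all 48 libraries together, and Il19 held 58. Il1a, Il24, Csf2, Cxcl5 and Ccl17 each failed the filter in at least 1 of the 9 treatment and time comparisons.

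**Figure D2:**
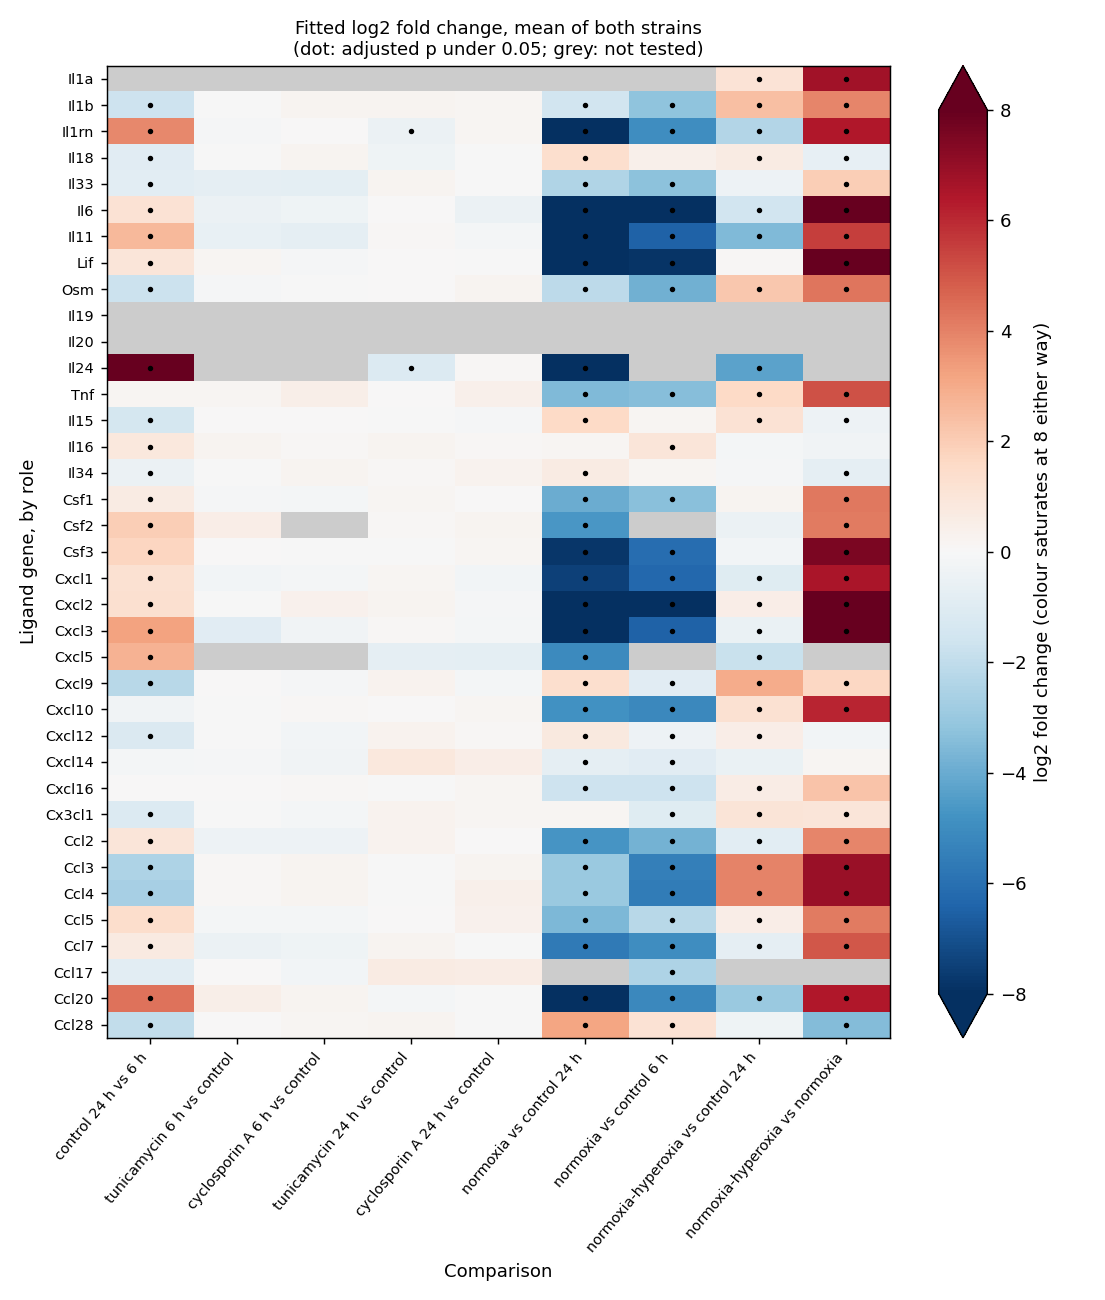
Fitted log2 fold change (colour) of each ligand gene (rows) in the 9 comparisons over both strains (columns), with a dot where the adjusted p was under 0.05 and grey where the gene was not tested. The drug columns hold 2 dots in all, both for tunicamycin at 24 h, and the normoxia columns are mostly blue where the last column is red; fitted values of genes at 0 in a group are not bounds.

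In the interleukin-1 family, Il1rn encodes the receptor antagonist that blocks interleukin-1 signalling and lies at chr2:24336853-24351494 (GRCm38, as are all gene positions). It stood at 3.91, 9.64 and 6.72 CPM and at 16.7, 12 and 14.3 CPM in 6 h controls. At 24 h it stood at 184, 163 and 158 CPM and at 172, 156 and 159 CPM. All 24 h controls thus lay far above all 6 h controls. Under normoxia it stood at 0.35, 0.198 and 0.153 CPM and at 0.368, 0.261 and 0.547 CPM, which is 3 to 13 counts a library. Under normoxia-hyperoxia it stood at 12.7, 11.1 and 21.2 CPM and at 53.4, 44.3 and 65.9 CPM, between the normoxia and the 24 h libraries without overlap. Il1rn rose with time by 3.86 ± 0.17 log2 units (SE; adjusted p = 1.14e-09). It was 722-fold lower under normoxia than at 24 h in C57BL/6J (95% counting interval 430 to 1268) and 413-fold lower in DBA/2J. Against 24 h controls, normoxia-hyperoxia slices remained lower by a log2 change of -2.36 ± 0.14 (SE; adjusted p = 2.81e-08).

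Il1b, the secreted agonist made mainly by myeloid cells, moved the other way with time. It stood at 13.1, 30.4 and 20.1 CPM and 26, 24.5 and 21.7 CPM in 6 h controls, and at 6.22, 6.26 and 7.19 CPM and 8.38, 15.5 and 8.39 CPM at 24 h. Under normoxia it stood at 3.02, 3.76 and 3.11 CPM and at 1.76, 1.93 and 1.77 CPM, and under normoxia-hyperoxia at 25, 28.7 and 27.2 CPM and 59.4, 63.2 and 49 CPM. Normoxia libraries were the lowest of the 4 conditions in both strains and normoxia-hyperoxia libraries of DBA/2J the highest. Il1b fell with time by 1.64 on the log2 scale (SE 0.211; adjusted p = 1.84e-05) and was higher under normoxia-hyperoxia than at 24 h by 2.39 ± 0.14 (SE; adjusted p = 6.59e-09). The macrophage marker sum of DBA/2J normoxia-hyperoxia, 537 CPM, was also the highest of the 8 groups.

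Il33, an alarmin stored in the nucleus, stood at 28.2, 52.6 and 37.3 CPM and 84.7, 50.6 and 55.7 CPM in 6 h controls, and at 27.8, 29.4 and 29.9 CPM and 49.6, 30.4 and 30.3 CPM at 24 h. Under normoxia it stood at 6.95, 10.1 and 5.97 CPM and 2.91, 3.44 and 3.87 CPM, and under normoxia-hyperoxia at 12.1, 23.6 and 29.7 CPM and 12.3, 22.6 and 29.2 CPM. Normoxia libraries were the lowest in each strain. Its log2 change under normoxia against 24 h controls was -2.41 ± 0.16 (SE; adjusted p = 4.51e-09). Il18, a partner of interferon gamma responses, never passed 2.86 CPM in the control and oxygen groups, and was higher under normoxia than at 24 h by 1.34 ± 0.19 log2 units (SE; adjusted p = 8.62e-06). Il1a had 0 counts in all 6 normoxia libraries and 4 to 21 counts in each normoxia-hyperoxia library, a difference of at least 3.4-fold for C57BL/6J and of at least 6.84-fold for DBA/2J against a floor of 3 counts per library.

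In the interleukin-6 family, Il6 showed the largest fold between groups, set against normoxia libraries at or near 0 counts, while Lif spanned more in CPM. Il6 (chr5:30013114-30019981) encodes the ligand that drives the acute-phase response, and its promoter window is printed above. Its level was 18.8, 36.2 and 24.2 CPM and 56.4, 44.2 and 52.1 CPM in 6 h controls. At 24 h it was 68.2, 60.8 and 51 CPM and 190, 128 and 118 CPM, above the 6 h libraries of the same strain in each. Under normoxia it had 0, 2 and 0 counts in C57BL/6J and no count in any DBA/2J library, where 3 counts would be 0.135 CPM on average. Under normoxia-hyperoxia it was 18.4, 29.9 and 31.1 CPM and 18.4, 29.7 and 41.9 CPM. Normoxia libraries thus lay below every library of the other 3 conditions. Il6 was at least 1081-fold lower under normoxia than at 24 h in DBA/2J, and 1818-fold lower in C57BL/6J with a counting interval of 531 to 15865. Under normoxia-hyperoxia it was at least 222-fold higher than under normoxia in DBA/2J, and 803-fold in C57BL/6J (interval 233 to 6968). Against 24 h controls, its log2 change under normoxia-hyperoxia was -1.56 ± 0.21 (SE; adjusted p = 4.68e-05).

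Lif encodes leukemia inhibitory factor. It stood at 108, 251 and 129 CPM and 97, 83.2 and 96.9 CPM in 6 h controls, and at 325, 282 and 235 CPM and 250, 329 and 264 CPM at 24 h. Under normoxia all 6 libraries lay between 0.357 and 0.778 CPM, on 7 to 19 counts each. Under normoxia-hyperoxia it stood at 311, 220 and 256 CPM and 249, 280 and 268 CPM, overlapping the 24 h controls. The fitted change was -8.78 ± 0.15 under normoxia against 24 h controls and 8.87 ± 0.12 under normoxia-hyperoxia against normoxia (log2, SE; adjusted p = 6.23e-16 and 3.51e-16). Against 24 h controls, normoxia-hyperoxia differed by 0.08 ± 0.10 (SE; adjusted p = 0.517), which did not pass the test.

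Il11, a fibrosis-linked ligand of the family, stood at 8.05, 18.5 and 11.6 CPM and 33.5, 29.3 and 27.8 CPM in 6 h controls. At 24 h it stood at 112, 119 and 103 CPM and at 238, 156 and 133 CPM. Normoxia libraries held 0.153 to 0.350 CPM and normoxia-hyperoxia libraries 8.04 to 14.2 CPM, so that the second set overlapped the C57BL/6J 6 h controls but lay below all 24 h controls. Il11 rose with time by 2.62 ± 0.20 (log2, SE; adjusted p = 2.5e-07) and was lower under normoxia-hyperoxia than at 24 h by a log2 change of -3.56 ± 0.19 (SE; adjusted p = 1.41e-08). Osm, oncostatin M, a product of myeloid cells, took another course: it fell with time by 1.70 on the log2 scale (SE 0.261; adjusted p = 3.39e-05) and was higher under normoxia-hyperoxia than at 24 h by 2.18 ± 0.27 (SE; adjusted p = 4.32e-06). Its level was low, with 0.609 to 4.35 CPM in control libraries and at most 8.39 CPM under normoxia-hyperoxia.

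**Figure D3:**
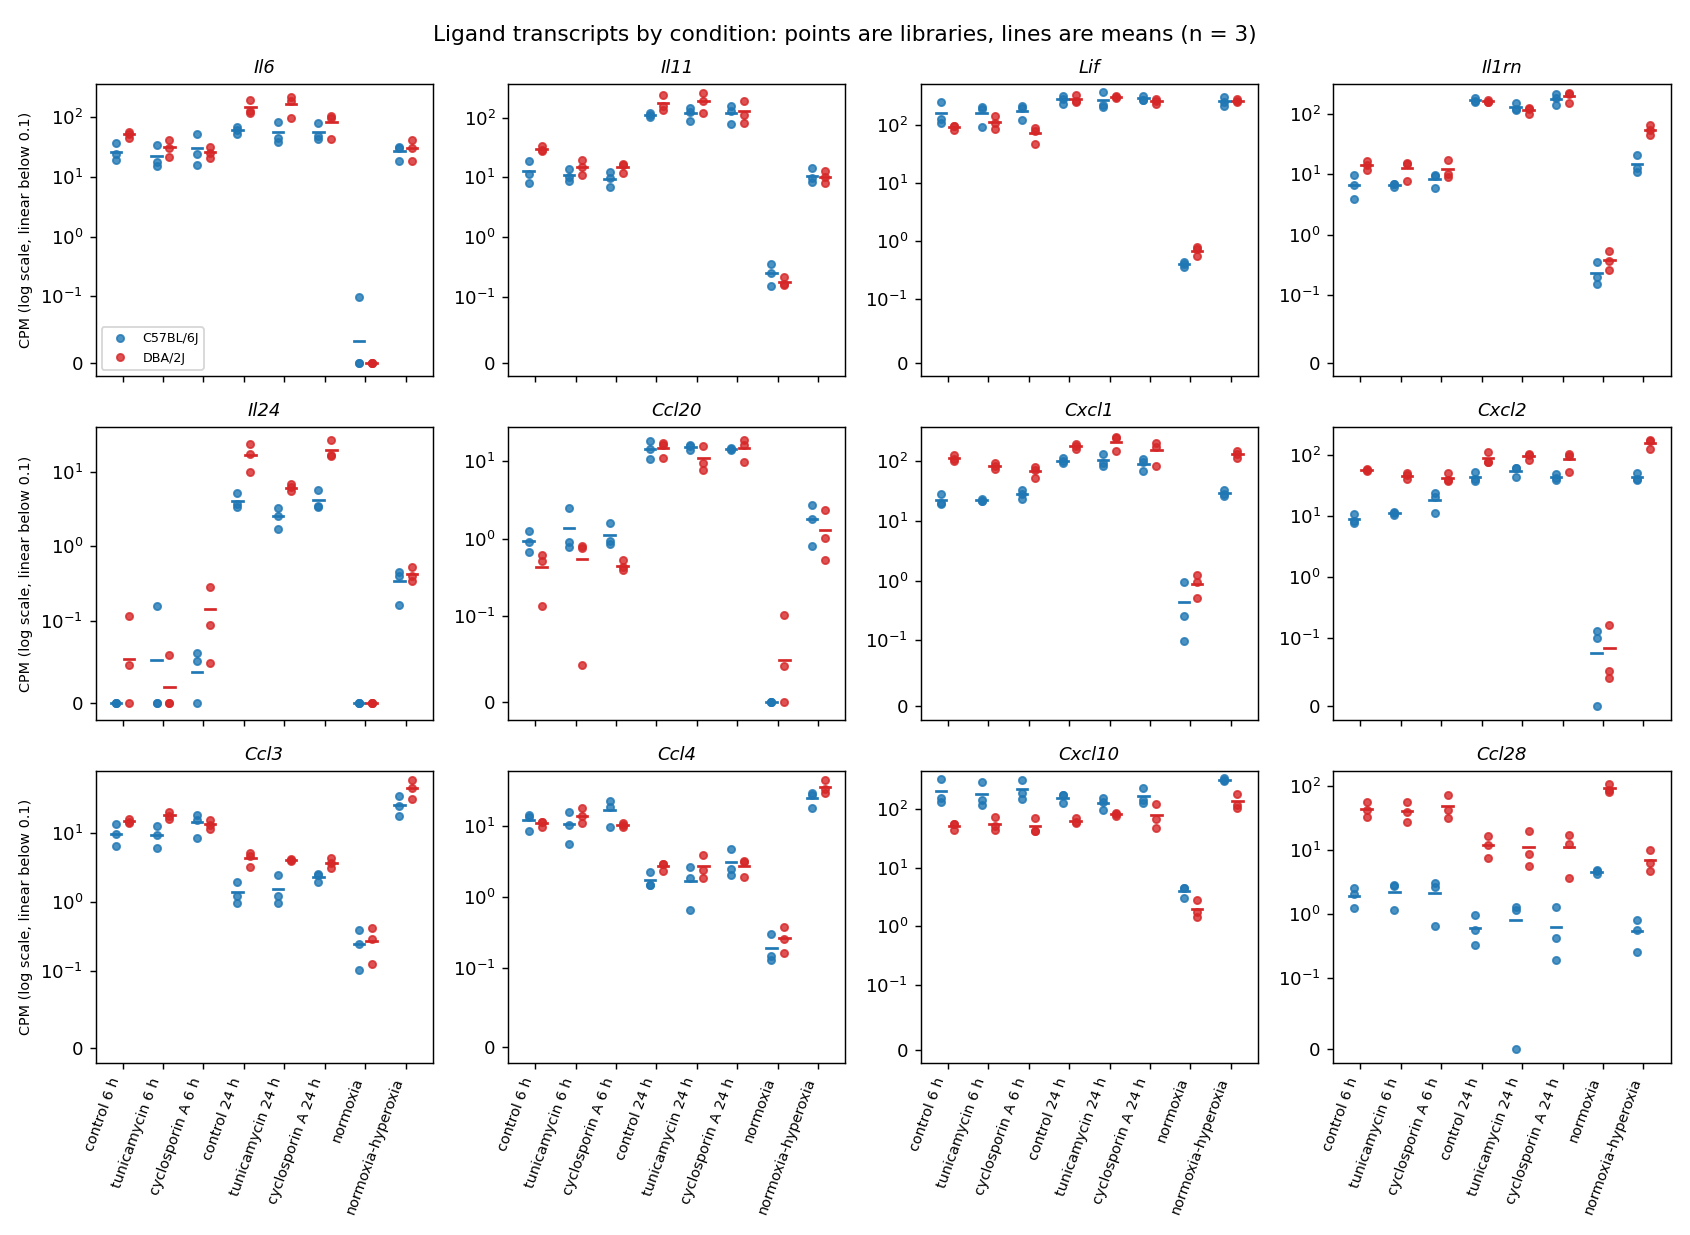
CPM of 12 ligand genes in the 8 conditions, on an axis that is logarithmic above 0.1 and linear below, with C57BL/6J in blue and DBA/2J in red; points are libraries and lines are means of 3. Il6, Il24, Cxcl2 and Ccl20 reach 0 in normoxia libraries, Lif returns to the range of 24 h controls under normoxia-hyperoxia, and Ccl28 lies higher in DBA/2J in every condition.

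Il24, of the interleukin-20 subfamily that acts on epithelia, went from near 0 to a clear signal within a day in control slices. At 6 h it held 0, 0 and 0 counts in C57BL/6J and 1, 0 and 2 counts in DBA/2J. At 24 h it stood at 3.38, 3.66 and 5.17 CPM and at 23.9, 9.89 and 17.3 CPM, a rise of at least 24.8-fold for C57BL/6J and of 319-fold for DBA/2J (counting interval 113 to 1611). All 6 normoxia libraries were at 0 counts, at least 28.3-fold below 24 h for C57BL/6J and at least 126-fold for DBA/2J. Normoxia-hyperoxia libraries held 3 to 10 counts each, 0.160 to 0.534 CPM, and were lower than 24 h controls by a log2 change of -4.28 ± 0.29 (SE; adjusted p = 7.14e-09). Its relatives Il19 and Il20 were near or at 0 counts in these 8 groups, and a difference was not detectable at this depth.

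Tnf, the founding member of the tumor necrosis factor family, was a minor transcript in control slices. It stood at 1.96, 2.87 and 2.33 CPM and 4.61, 3.93 and 3.55 CPM at 6 h, and at 2.49, 2.6 and 2.99 CPM and 5, 7.61 and 5.75 CPM at 24 h. Its change with time over both strains was 0.17 ± 0.15 (log2, SE; adjusted p = 0.342) and did not pass. Under normoxia it stood at 0.164 to 0.594 CPM, and under normoxia-hyperoxia at 7.13, 7.68 and 5.59 CPM and at 17.9, 12.3 and 19.2 CPM, above every control library of the same strain. It was higher under normoxia-hyperoxia than at 24 h by 1.57 ± 0.15 (log2, SE; adjusted p = 2.92e-07).

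Il15, Il16 and Il34 did not share the fall under normoxia. Il15, a survival factor of natural killer and memory T cells, was higher under normoxia (9.08 to 11 CPM) than in 24 h controls (3.04 to 4.87 CPM), with a log2 fold change of 1.59 ± 0.12 (SE; adjusted p = 2.88e-09). In the same comparison 7 of 7 T cell markers and all 3 natural killer cell markers tested, of 5 listed, were called higher in the mean of both strains, and their part was not tested. Of these, Cd3e and Cd3g had strain interactions of -5.87 ± 0.70 and -2.56 ± 0.79 (log2, SE, adjusted p = 0.000112 and 0.0366). For Cd3e, with a mean change of 1.26, the fitted change was a fall for DBA/2J. The T cell marker sums were 1.99 to 3.38 and 7.86 to 9.63 CPM at 24 h and 12 to 14 and 19.4 to 22.2 CPM under normoxia, and the natural killer sums 0.242 to 0.278 and 0.203 to 0.507 CPM and 2.71 to 3.47 and 1.97 to 3.11 CPM. At 24 h Ncr1 and Klrb1c were at 0 in C57BL/6J and Nkg7 in DBA/2J. Il16, a ligand of CD4, stood at 6.95, 9.51 and 10.4 CPM and 4.79, 5.32 and 6.1 CPM under normoxia, and at 8.26, 8.95 and 8.48 CPM and 7.13, 7.71 and 4.33 CPM at 24 h. It stood at 3.47, 3.61 and 2.95 CPM and 3.43, 3.83 and 4.29 CPM at 6 h, and at 3.41, 5.69 and 4.74 CPM and 7.64, 7.3 and 7.72 CPM under normoxia-hyperoxia. The normoxia and 24 h libraries overlapped in both strains, and the fitted change of 0.17 ± 0.14 (SE; adjusted p = 0.26) did not pass. Of its exon bases, 15.3% overlap Stard5 on the other strand, and the strand setting of the counting is not given in the sources used here. Il34, a second ligand of the macrophage receptor CSF1R, was higher under normoxia by 0.66 ± 0.08 in the mean of both strains (log2, SE; adjusted p = 1.13e-06). Its means were 1.09-fold lower for C57BL/6J, with overlapping libraries, and 1.87-fold higher for DBA/2J, and its levels and interaction are given with the strain differences.

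Of the colony-stimulating factors, Csf1 supplied nearly all transcripts. Csf1, which sustains macrophages, stood at 127, 225 and 160 CPM and 126, 119 and 140 CPM in 6 h controls, and at 264, 334 and 275 CPM and 213, 283 and 247 CPM at 24 h. Normoxia libraries held 15.8, 19.1 and 19.4 CPM and 8.06, 12.5 and 14.3 CPM. Normoxia-hyperoxia libraries, at 239 to 380 CPM, overlapped the 24 h controls. Csf1 was lower under normoxia than at 24 h by a log2 change of -3.94 ± 0.13 (SE; adjusted p = 1.71e-11). The macrophage marker sums of these groups were 281 and 212 CPM under normoxia and 253 and 310 CPM at 24 h. Csf3, the granulocyte factor, stood at 5.18, 5.52 and 4.84 CPM and 3.07, 6.24 and 3.59 CPM at 24 h, against 0.789 to 1.94 CPM over all 6 h controls. Under normoxia it held 3, 0 and 0 counts in C57BL/6J and none in DBA/2J, and under normoxia-hyperoxia 3.57, 2.67 and 2.22 CPM and 4.42, 4.27 and 4.92 CPM. It was 119-fold lower under normoxia than at 24 h for C57BL/6J (interval 37 to 533) and at least 31.9-fold lower for DBA/2J. Csf2, the granulocyte and macrophage factor, reached at most 1.61 CPM in the control and oxygen groups and fell from 14 to 30 counts per 24 h control library to at most 1 count per normoxia library.

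The 4 CXCR2 ligands, Cxcl1, Cxcl2, Cxcl3 and Cxcl5, lie together on chromosome 5 and draw neutrophils. They are close relatives, so the division of reads among them is uncertain. Cxcl1 (chr5:90891241-90893115) stood at 19.1, 28.3 and 19.7 CPM and 126, 109 and 102 CPM in 6 h controls. At 24 h it stood at 92.7, 114 and 101 CPM and at 179, 198 and 159 CPM. Every 24 h library lay above the 6 h libraries of its strain, and every DBA/2J control above the C57BL/6J controls of the same time. Under normoxia Cxcl1 stood at 0.962, 0.099 and 0.255 CPM and 1.23, 0.938 and 0.505 CPM, and under normoxia-hyperoxia at 28.5, 26.7 and 33.5 CPM and 131, 115 and 148 CPM. The fitted changes were 1.22 ± 0.11 with time (adjusted p = 1.31e-07), -7.44 ± 0.23 under normoxia against 24 h (adjusted p = 3.15e-11) and -0.95 ± 0.08 under normoxia-hyperoxia against 24 h (log2, SE; adjusted p = 1.02e-07).

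Cxcl2, a ligand of the same receptor, stood at 8.33, 10.9 and 7.81 CPM and 60, 55.2 and 57 CPM at 6 h, and at 38.1, 52.9 and 41.2 CPM and 78.9, 115 and 77.3 CPM at 24 h. Normoxia libraries held 3, 0 and 2 counts in C57BL/6J and 4, 1 and 1 counts in DBA/2J. Normoxia-hyperoxia libraries stood at 51.5, 40.2 and 38.9 CPM and at 170, 128 and 175 CPM, the latter above all DBA/2J 24 h controls. Cxcl2 was 568-fold lower under normoxia than at 24 h in C57BL/6J (interval 240 to 1727) and 1052-fold lower in DBA/2J (interval 473 to 2810). Against 24 h controls, the mean of both strains was higher under normoxia-hyperoxia by 0.56 ± 0.14 (log2, SE; adjusted p = 0.00323), where that of Cxcl1 was lower. For C57BL/6J the Cxcl2 libraries of these 2 conditions overlapped, so the rise was seen for DBA/2J only. No strain interaction was fitted for this comparison.

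Cxcl3 had 0 counts in all 6 normoxia libraries. It stood at 0.168, 0.282 and 0.31 CPM and 1.6, 0.932 and 0.743 CPM at 6 h, and at 2.59, 3.48 and 3.15 CPM and 7.96, 14.6 and 9 CPM at 24 h. Under normoxia-hyperoxia it stood at 0.692, 1.19 and 1.66 CPM and at 9.54, 13.5 and 9.08 CPM. It rose with time by 3.19 ± 0.25 (log2, SE; adjusted p = 3.43e-08) and was at least 21.3-fold lower under normoxia than at 24 h for C57BL/6J and at least 77.8-fold lower for DBA/2J. Cxcl5, which held at most 2.89 CPM in control libraries, rose with time by 2.79 ± 0.79 (log2, SE; adjusted p = 0.00593). Cxcr2, their receptor, is among the 8 neutrophil markers whose sums are given above. Against 24 h controls, S100a9 and S100a8 were called higher under normoxia (log2 3.08 and 1.21) and Mmp8 lower (-2.79). Under normoxia-hyperoxia, S100a9, S100a8 and Cxcr2 were called higher (4, 1.31 and 1.55) and Mmp8 lower (-6.78). Cxcr2 was also higher in DBA/2J than in C57BL/6J under normoxia-hyperoxia, by 2 ± 0.70 (log2, SE, adjusted p = 0.0464). The part of these markers was not tested.

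The CXCR3 ligands Cxcl9 and Cxcl10, induced by interferons, differed from each other. Cxcl10 stood at 134, 333 and 155 CPM and 55.2, 55.8 and 43.3 CPM at 6 h, and at 171, 173 and 126 CPM and 59.9, 71.8 and 58.1 CPM at 24 h. Normoxia libraries held 4.46, 3.02 and 4.54 CPM and 1.76, 1.46 and 2.78 CPM, and under normoxia-hyperoxia at 314, 346 and 301 CPM and 106, 119 and 181 CPM. Normoxia-hyperoxia libraries lay above the 24 h controls of the same strain, and C57BL/6J above DBA/2J in every condition. The change with time, -0.27 ± 0.21, did not pass (SE; adjusted p = 0.276), and normoxia against 24 h gave -4.85 ± 0.15 and normoxia-hyperoxia against 24 h gave 1.23 ± 0.14 (log2, SE; adjusted p = 9.59e-12 and 5.24e-06). Cxcl9, at 5.95 to 7.66 CPM in C57BL/6J 6 h controls and 0.846 to 1.61 CPM at 24 h, fell with time by 2.22 on the log2 scale (SE 0.366; adjusted p = 8.23e-05). Under normoxia Cxcl9 was higher than at 24 h, by 1.34 ± 0.37 (log2, SE; adjusted p = 0.0033), with libraries apart in C57BL/6J and overlapping in DBA/2J.

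Cxcl12, which retains CXCR4-bearing cells, stood at 95.4, 68.9 and 79.3 CPM and 67.5, 53.5 and 59 CPM at 6 h, and at 48.3, 57.9 and 41 CPM and 26.9, 28.4 and 28.3 CPM at 24 h. Under normoxia it stood at 68.9, 93.7 and 80.7 CPM and 28.8, 35.4 and 35.9 CPM, and under normoxia-hyperoxia at 54.9, 73.6 and 47.2 CPM and 32.7, 36.8 and 41.7 CPM. In each strain the 6 h and 24 h controls did not overlap. Cxcl12 fell with time by 1.13 on the log2 scale (SE 0.0967; adjusted p = 8.65e-08) and was higher under normoxia than at 24 h by 0.76 ± 0.09 (adjusted p = 1.73e-06). Cx3cl1, the membrane-bound ligand of CX3CR1, stood at 150, 158 and 169 CPM and 135, 107 and 98.3 CPM at 6 h, and at 86.3, 92 and 81.6 CPM and 55.9, 66.2 and 65.2 CPM at 24 h. Normoxia libraries stood at 90.8, 97.1 and 86.9 CPM and 41.8, 49.8 and 54.7 CPM, and normoxia-hyperoxia libraries at 159, 171 and 161 CPM and 89.6, 124 and 126 CPM. It fell with time by 1.08 (log2, SE 0.0801; adjusted p = 1.93e-08) and differed between normoxia and 24 h controls by 0.13 ± 0.07 (adjusted p = 0.0756), which did not pass. By mean CPM, scaled by total counts and not by the TMM factors of the fit (scaling factors that edgeR estimates between libraries), it was 1.06-fold higher under normoxia for C57BL/6J, with overlap, and 1.28-fold lower for DBA/2J, without overlap (interaction -0.33 ± 0.13 log2, SE; adjusted p = 0.106). Cxcl16, a ligand of CXCR6, stood at 124 to 184 CPM in all controls of both times, at 41.2 to 46.9 CPM under normoxia and at 169 to 304 CPM under normoxia-hyperoxia. It was lower under normoxia than at 24 h by a log2 change of -1.64 ± 0.06 (SE; adjusted p = 5.1e-13). Of its exon bases, 18.3% overlap Zmynd15 on the other strand. Cxcl14, an epithelial chemokine, did not pass with time (-0.13 ± 0.21 SE; adjusted p = 0.605). It was lower under normoxia than at 24 h by a log2 change of -0.71 ± 0.19 (SE; adjusted p = 0.00351), which was not called with all 48 libraries in one fit (adjusted p = 0.0711). Its means at 24 h and under normoxia were 25.4 and 22.4 CPM for C57BL/6J, with overlapping libraries, and 13.2 and 3.89 CPM for DBA/2J, without overlap.

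Among the CC ligands, Ccl20 and the pair Ccl3 and Ccl4 moved in opposite directions in control slices. Ccl20, the ligand of CCR6, stood at 0.895, 1.24 and 0.672 CPM and 0.137, 0.621 and 0.515 CPM at 6 h, and at 18.3, 14.2 and 10.5 CPM and 16.9, 16 and 11 CPM at 24 h. It held 0 counts in all C57BL/6J normoxia libraries and 0, 2 and 1 counts in DBA/2J, and 0.534 to 2.72 CPM under normoxia-hyperoxia. Ccl20 rose with time by 4.33 ± 0.25 (log2, SE; adjusted p = 2.73e-09) and was lower under normoxia-hyperoxia than at 24 h by a log2 change of -3.00 ± 0.30 (SE; adjusted p = 2.44e-06).

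Ccl3, a chemokine made by macrophages, stood at 6.38, 13.3 and 9.62 CPM and 14, 16 and 14.5 CPM at 6 h, and at 1.24, 1.95 and 0.969 CPM and 3.23, 5.07 and 4.67 CPM at 24 h. Normoxia libraries held 0.102 to 0.417 CPM, and normoxia-hyperoxia libraries 34.1, 24.6 and 17.3 CPM and 58.1, 31.3 and 45.2 CPM, the highest of the 4 conditions in both strains. Ccl3 fell with time by 2.48 (log2, SE 0.2; adjusted p = 5.5e-08) and was 18.3-fold higher under normoxia-hyperoxia than at 24 h for C57BL/6J and 10.4-fold higher for DBA/2J (adjusted p of the mean of both strains = 5.12e-08). Its neighbour and close relative Ccl4 stood at 8.5, 13.6 and 14.5 CPM and 9.86, 11.4 and 11.6 CPM at 6 h, and at 1.49, 1.48 and 2.26 CPM and 2.34, 2.94 and 2.98 CPM at 24 h. Under normoxia it held 0.131 to 0.378 CPM, and under normoxia-hyperoxia 29.2, 27.1 and 17.8 CPM and 45.1, 28.8 and 33.7 CPM. As for Ccl3, normoxia-hyperoxia libraries were the highest of each strain. Its fitted changes were -2.63 ± 0.16 with time and 3.97 ± 0.18 under normoxia-hyperoxia against 24 h (log2, SE; adjusted p = 2.86e-09 and 3.9e-10). The macrophage marker sums of these groups went from 253 and 310 CPM at 24 h to 297 and 537 CPM under normoxia-hyperoxia.

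The monocyte attractants Ccl2 and Ccl7 and the T cell attractant Ccl5 rose with time in the mean of both strains and were lower under normoxia than at 24 h. Ccl2 stood at 4.36, 10.9 and 6.31 CPM and 28.5, 18.2 and 22.3 CPM at 6 h, 28.1, 34 and 31.7 CPM and 23, 41.3 and 18.9 CPM at 24 h, and 0.446 to 1.43 CPM under normoxia. Under normoxia-hyperoxia it stood at 6.39, 7.6 and 7.16 CPM in C57BL/6J, below the 24 h controls, and at 28.1, 25.8 and 35.7 CPM in DBA/2J, within them. The rise with time was 0.98 ± 0.24 for Ccl2, 0.74 ± 0.24 for Ccl7 and 1.42 ± 0.27 for Ccl5 (log2, SE; adjusted p = 0.00275, 0.0124 and 0.000545). For DBA/2J the means of Ccl2 and Ccl7 were 1.2-fold and 1.43-fold higher at 24 h with overlapping libraries, against 4.35-fold and 2.63-fold for C57BL/6J without overlap, and neither interaction passed (adjusted p = 0.143 and 0.546). Over both strains, Ccl2 was lower under normoxia than at 24 h by a log2 change of -4.71 ± 0.22 (SE; adjusted p = 2.96e-10). Ccl7 stood at 1.62, 2.48 and 3.62 CPM and 6.94, 3.11 and 4.86 CPM at 6 h and at 6.12, 7.19 and 6.94 CPM and 7.02, 9.94 and 4.4 CPM at 24 h. It held 0 to 6 counts per library under normoxia, and 3.51, 1.71 and 1.61 CPM and 6.66, 4.98 and 6.77 CPM under normoxia-hyperoxia. In the same comparison the log2 change was -5.65 ± 0.36 for Ccl7 and -3.62 ± 0.22 for Ccl5 (SE; adjusted p = 7.6e-10 and 8.18e-09). Ccl5 stood at 12.4, 31.8 and 11.1 CPM and 5.48, 5.69 and 4.35 CPM at 6 h, at 36.1, 62.7 and 37.7 CPM and 18, 22.6 and 20.4 CPM at 24 h, and at 0.819 to 3.21 CPM under normoxia. Ccl17, a ligand of CCR4, never passed 0.880 CPM in the control and oxygen groups.

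Ccl28, a chemokine of mucosal and glandular epithelium (chr13:119623819-119654359), was highest under normoxia. In C57BL/6J it stood at 2.52, 1.24 and 2.02 CPM at 6 h, 0.946, 0.556 and 0.323 CPM at 24 h, 4.24, 4.85 and 4.64 CPM under normoxia and 0.799, 0.557 and 0.252 CPM under normoxia-hyperoxia. In DBA/2J it stood at 41.4, 32.7 and 56.8 CPM, 11.9, 7.41 and 16.6 CPM, 85.8, 81.7 and 108 CPM, and 9.88, 4.63 and 6.17 CPM in the same order. Normoxia libraries were the highest in each strain, with no overlap. Ccl28 fell with time by 1.94 (log2, SE 0.298; adjusted p = 8.82e-05), was higher under normoxia than at 24 h by 3.16 ± 0.23 (adjusted p = 6.49e-08) and lower under normoxia-hyperoxia than under normoxia by a log2 change of -3.46 ± 0.20 (SE; adjusted p = 4.4e-09). The proximal tubule marker sums given above were likewise highest under normoxia and lower at 24 h than at 6 h in both strains.

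Tunicamycin and cyclosporin A were set against controls of the same time to ask what each drug did to the ligands. At 24 h, 2 of 34 ligand genes were called for tunicamycin, both lower, where 1.38% of all genes tested were called (0.97% higher and 0.408% lower). Il24 stood at 1.7, 2.57 and 3.3 CPM and 6.21, 6.82 and 5.49 CPM under tunicamycin, against 3.38, 3.66 and 5.17 CPM and 23.9, 9.89 and 17.3 CPM in controls, with no overlap in either strain. Its log2 fold change was -1.07 ± 0.22 (SE; adjusted p = 0.034), and omitting any of 10 of the 12 libraries raised the adjusted p above 0.05, up to 0.101, with log2 changes of -1.21 to -0.91 over all omissions. The 2 omissions that kept the call were C57BL/6J tunicamycin replicate 3 and DBA/2J control replicate 2.

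Il1rn stood at 117, 121 and 153 CPM and 123, 122 and 98.4 CPM under tunicamycin at 24 h, below all controls of either strain. Its log2 fold change was -0.44 ± 0.08 (SE; adjusted p = 0.0156). Without C57BL/6J tunicamycin replicate 1 the adjusted p was 0.0523 and neither gene was called, and with all 48 libraries in one fit it was 0.261. The 24 h effect of tunicamycin differed between the strains for 0 of the 34 by the interaction test (0% of all genes called), with 1 at an unadjusted p under 0.05.

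In the mean of both strains, tunicamycin at 6 h and cyclosporin A at 6 h and 24 h gave 0 calls among 32, 31 and 34 ligand genes by edgeR. The share of all genes called was 0% in each. At an unadjusted p under 0.05 there were 2, 3 and 2 ligand genes. With DESeq2 the counts over all genes were 45 for cyclosporin A at 6 h and 20 at 24 h. Il11, at -0.61 ± 0.20 for tunicamycin and -0.70 ± 0.20 for cyclosporin A at 6 h (log2, SE; adjusted p = 1 and 0.65), had the smallest unadjusted p under cyclosporin A, and Il33 under tunicamycin. No strain interaction was fitted for these 3 comparisons, so opposite moves of the strains can cancel in the mean. Under cyclosporin A at 6 h, Cxcl2 was 2.05-fold higher for C57BL/6J and 1.34-fold lower for DBA/2J, both without overlap. Il6, Il11, Ccl2 and Ccl7 were 1.97-fold to 2.07-fold lower for DBA/2J without overlap, and overlapped for C57BL/6J. Most other ligand genes overlapped in each strain.

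Strain differences were fitted in the controls at both times, under normoxia and under normoxia-hyperoxia. DBA/2J against C57BL/6J gave 18 calls of 34 at 6 h, where 26.2% of all genes were called, and 15 of 34 at 24 h, where 22.2% were. Of these, 10 were higher in DBA/2J at each time (13.6% and 13.9% of all genes), and 8 and 5 were lower (12.7% and 8.27%). Under normoxia 14 of 32 were called, 5 higher and 9 lower, a share near that of all genes, 46.8% (28.3% higher and 18.5% lower), and the count was 9 without C57BL/6J normoxia replicate 3, without DBA/2J normoxia replicate 1, or with all 48 libraries in one fit. Under normoxia-hyperoxia 18 of 32 were called, 14 higher and 4 lower, where 25.7% of all genes were (14.3% higher and 11.3% lower). With total counts the share of higher calls over all genes went from 51.7% to 75.7% at 6 h and from 55.8% to 73.9% under normoxia-hyperoxia. Ccl28 had the largest difference. Its level is given above, and its mean was 22.8-fold higher in DBA/2J at 6 h, 19.7-fold at 24 h, 20.1-fold under normoxia and 12.9-fold under normoxia-hyperoxia, with no overlap in any of the 8 conditions. The fitted differences ran from 3.66 ± 0.34 to 4.40 ± 0.22 log2 units (SE; adjusted p = 9.01e-06 and 2.57e-08).

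Il34 was likewise higher in DBA/2J in every condition. It stood at 18, 23.7 and 19.8 CPM and 50.1, 48.5 and 48.5 CPM at 6 h, and at 25.7, 20.5 and 18.1 CPM and 34.3, 33.4 and 34.4 CPM at 24 h. Normoxia libraries held 20.2, 17.9 and 20.9 CPM and 61.9, 61.3 and 67.8 CPM, and under normoxia-hyperoxia at 18.1, 22.4 and 12.3 CPM and 28.3, 26.3 and 31.5 CPM. The ratio of means was 2.4 at 6 h and 3.23 under normoxia (adjusted p = 2.89e-05 and 3.49e-06).

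Of the CXCR2 ligands, Cxcl1, Cxcl2 and Cxcl3 were called higher in DBA/2J at 6 h, at 24 h and under normoxia-hyperoxia. The ratio of means, DBA/2J over C57BL/6J, was 5 for Cxcl1, 6.36 for Cxcl2 and 4.31 for Cxcl3 at 6 h, with fitted differences of 2.18 ± 0.16, 2.52 ± 0.19 and 1.95 ± 0.46 (log2, SE; adjusted p = 2.3e-07, 5.58e-07 and 0.00605). Under normoxia-hyperoxia it was 4.44 for Cxcl1, 3.61 for Cxcl2 and 9.07 for Cxcl3. Under normoxia itself these 3 did not pass between the strains, at 0 to 30 counts per library.

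Ligands higher in C57BL/6J included Cxcl10, Cxcl12 and Cx3cl1. Cxcl10 differed at 6 h by a log2 change of -2.16 ± 0.31 (SE; adjusted p = 0.000473), and its libraries did not overlap between the strains in any of the 8 conditions. Cxcl12 differed by -0.58 ± 0.13 at 6 h and -1.21 ± 0.17 under normoxia (log2, SE; adjusted p = 0.00555 and 7.79e-05), and the former was not called with all 48 libraries in one fit (adjusted p = 0.163). Cx3cl1 differed by -0.63 ± 0.11 at 6 h and -0.84 ± 0.12 under normoxia (log2, SE; adjusted p = 0.000903 and 4.23e-05). Both ligands were also called lower in DBA/2J at 24 h and under normoxia-hyperoxia. Of 6 endothelial markers, 6 were called lower in DBA/2J at 6 h, 4 at 24 h, 5 under normoxia and 0 under normoxia-hyperoxia (log2 differences there of -0.31 to 0.16), with summed levels of 1103 to 1473 and 750 to 1005 CPM at 6 h, of 634 to 863 and 330 to 533 CPM under normoxia and of 1075 to 1478 and 1053 to 1441 CPM under normoxia-hyperoxia. Their part was not tested, and Cxcl12 and Cx3cl1 differed by -0.76 ± 0.17 and -0.63 ± 0.12 under normoxia-hyperoxia (log2, SE; adjusted p = 0.00536 and 0.000931). Ccl5, an attractant of T cells, was lower in DBA/2J at 6 h by a log2 change of -1.98 ± 0.40 (SE; adjusted p = 0.00428). Of 6 T cell markers tested at 6 h, 1 was called higher in DBA/2J (Trac) and 1 lower (Cd8a), and their part was not tested.

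**Figure D4:**
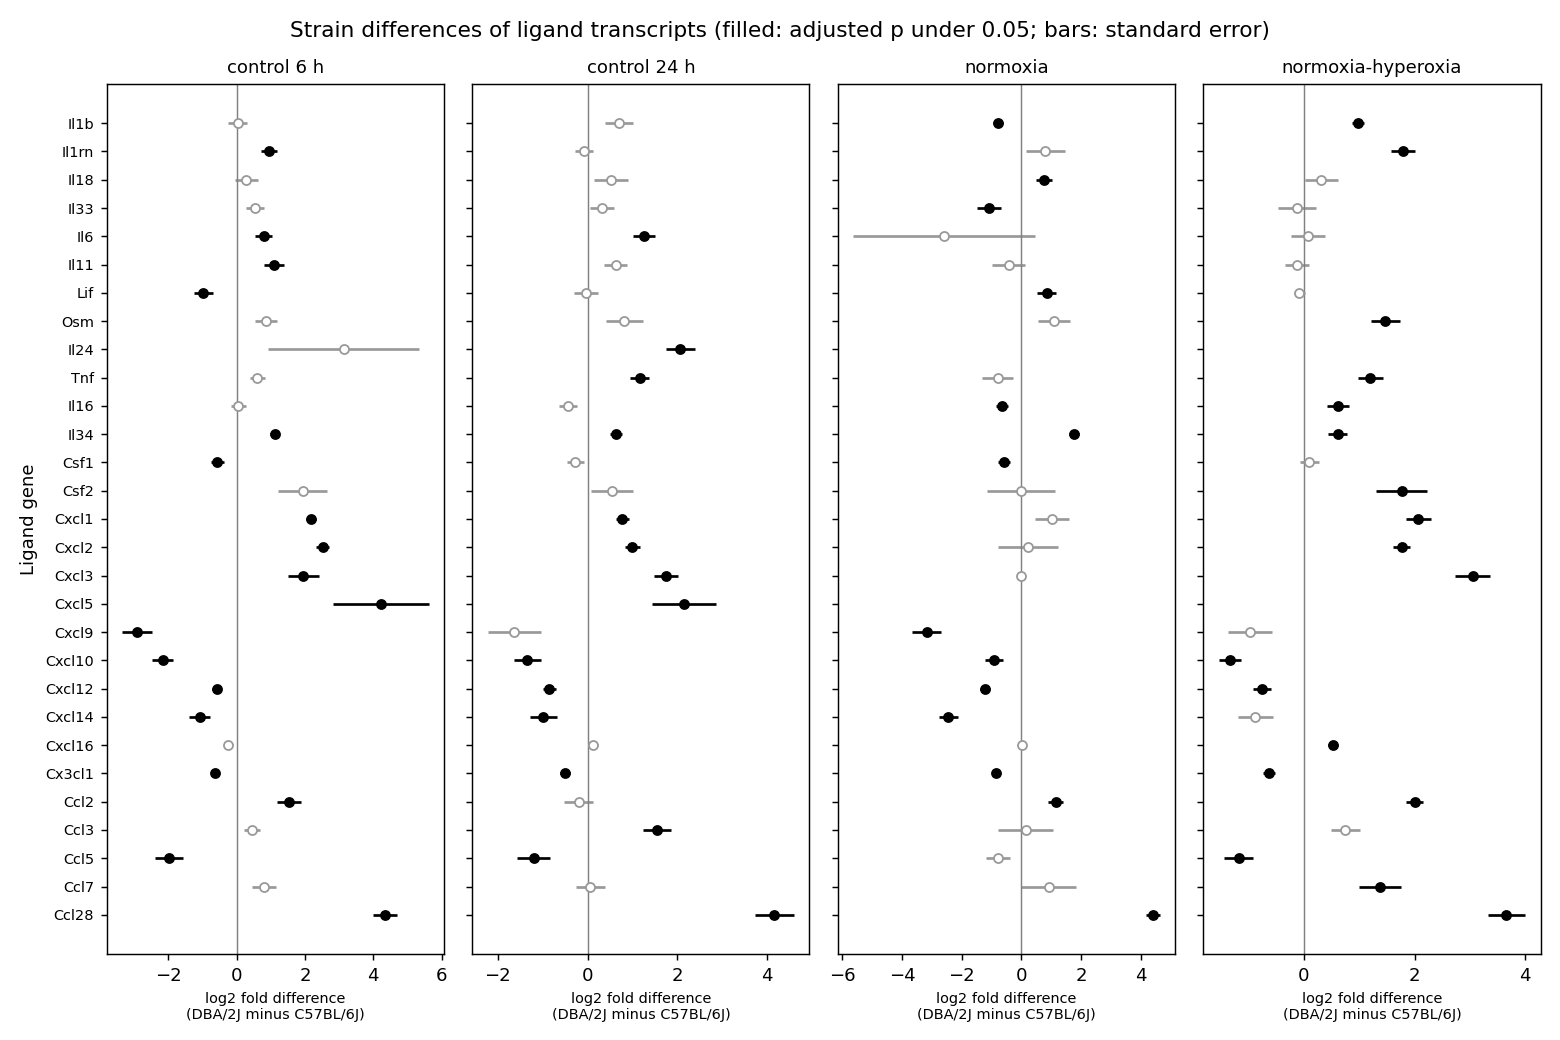
Fitted strain difference (DBA/2J minus C57BL/6J, log2, horizontal axis) of the ligand genes (rows) called in at least 1 of 4 conditions, with standard errors as bars; filled points have an adjusted p under 0.05, and each panel has its own scale. Ccl28 lies between 3.66 and 4.40 in all 4 panels, and Cxcl1, Cxcl2 and Cxcl3 are filled in each panel but normoxia.

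Responses that differed between the strains were tested as interactions, DBA/2J effect minus C57BL/6J effect. With time, 2 of 34 ligand genes were called, both with a smaller rise in DBA/2J, where 0.69% of all genes were called (0.419% higher and 0.271% lower, a split of 60.7% higher that became 27.4% with total counts). Cxcl1 rose 4.55-fold for C57BL/6J and 1.6-fold for DBA/2J, an interaction of -1.40 ± 0.21, and Cxcl2 4.88-fold and 1.58-fold, an interaction of -1.52 ± 0.25 (log2, SE; adjusted p = 0.00626 and 0.0125). With all 48 libraries in one fit the adjusted p of Cxcl1 was 0.064. This interaction and the strain difference at 6 h share the 6 h control libraries.

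For normoxia against 24 h, 5 of 33 ligand genes had an interaction, 1 higher and 4 lower, where 17% of all genes did (10.1% higher and 6.88% lower). The count was 3 without DBA/2J normoxia replicate 1 and 3 with all 48 libraries in one fit. The split of all genes, 59.6% of calls higher, turned to 34.9% to 39.6% when C57BL/6J 24 h control replicate 3 or any of the 3 DBA/2J 24 h controls was left out, and to 37.9% with total counts, 44.3% without mitochondrial genes and 47% with all 48 libraries in one fit. Il1b was 1.99-fold lower in C57BL/6J and 5.93-fold lower in DBA/2J, and Il34 was 1.09-fold lower in C57BL/6J, with overlapping libraries, and 1.87-fold higher in DBA/2J. The interactions were -1.47 ± 0.33 for Il1b and 1.15 ± 0.16 for Il34 (log2, SE; adjusted p = 0.00757 and 0.000307). For normoxia-hyperoxia against normoxia, 7 of 32 had one, 6 higher and 1 lower, where 18.2% of all genes did (7.2% higher and 11% lower), and the count was 4 without DBA/2J normoxia replicate 1. Il1b was 8.18-fold higher for C57BL/6J and 31.4-fold higher for DBA/2J (interaction 1.77 ± 0.19 log2, SE; adjusted p = 9.7e-05). Macrophage marker sums moved with this, from 281 to 297 CPM for C57BL/6J and from 212 to 537 CPM for DBA/2J, and their part was not tested. The split of all genes there turned from 39.6% of calls higher to 70.1% with total counts. Both shares of interactions among the ligands lay near those of all genes.

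Receptors and regulators of these ligands, listed with earlier results of these data known, changed in both directions. Of 38 receptor genes, 30 were tested with time, and 10 rose and 12 fell, where 72% of all genes were called (34.7% higher and 37.4% lower). Under normoxia against 24 h, 31 were tested, and 12 rose and 17 fell, where 82% of all genes were called (42.4% higher and 39.7% lower), with a median log2 fold change of -0.64. Il1rl1, the receptor of interleukin-33, rose with time by 3.79 ± 0.17 and was lower under normoxia by a log2 change of -4.88 ± 0.10 (SE; adjusted p = 7.36e-10 and 1.57e-15). Ackr2, a scavenger of CC chemokines, rose by 2.87 ± 0.21 with time and was lower under normoxia, at -4.60 ± 0.23 (log2, SE; adjusted p = 5.59e-08 and 3.2e-10). Il18r1, a chain of the interleukin-18 receptor, rose with time by 2.72 ± 0.20, while the decoy receptor Il1r2 changed by -2.70 ± 0.33 and Cxcr6, the receptor of Cxcl16, by -1.86 ± 0.36 (log2, SE; adjusted p = 2.19e-08, 3.67e-06 and 0.000312). With time 6 of 6 T cell markers and 2 of 2 natural killer cell markers tested were called lower, with T cell sums of 7.14 to 9.64 and 15.6 to 19.7 CPM at 6 h and of 1.99 to 3.38 and 7.86 to 9.63 CPM at 24 h, and their part was not tested. The monocyte receptors Ccr2 and Cx3cr1 were higher under normoxia than at 24 h, by 2.46 ± 0.22 and 3.22 ± 0.22 (log2, SE; adjusted p = 9.03e-08 and 8.78e-09). Of the monocyte markers, which include Ccr2, 2 of 4 tested were called higher there and 1 lower, and of the macrophage markers 6 of 10 higher and 2 lower. Of the dendritic cell markers 5 of 6 were called higher, with sums of 21.2 to 25.5 and 15.9 to 19.3 CPM at 24 h and 31.6 to 42.1 and 16.7 to 22.2 CPM under normoxia. The part of these markers was not tested.

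Of 15 genes that process ligands or damp their signals, 2 rose and 8 fell with time (34.7% of all genes higher and 37.4% lower), and 4 rose and 10 fell under normoxia against 24 h (42.4% higher and 39.7% lower). Socs3, which damps signalling of the interleukin-6 family, was lower under normoxia by a log2 change of -4.76 ± 0.10 (SE; adjusted p = 8.72e-16). Zfp36, which destabilises cytokine messages, changed with time by -2.07 ± 0.12, and Sigirr, a damping receptor of the interleukin-1 family, was higher under normoxia by 2.39 ± 0.12 (log2, SE; adjusted p = 1.62e-09 and 6.04e-10). Under normoxia-hyperoxia against normoxia, 13 of the 15 were called higher and 2 lower, where 37% and 36.5% of all genes were.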

How the data were processed

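Bulk RNA was sequenced from 48 kidney slice libraries (16 groups of 3). The authors deposited raw counts per gene. Per the submitters' processing notes, bcl2fastq 2.20.0, FastQC 0.11.8, STAR 2.7.9a, featureCounts 1.5.1 and the GRCm38 mouse genome were used; strand setting, annotation release and read filters are not given in the sources used here. Per the labels, libraries were made with a stranded mRNA kit.

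Symbols matched 55141 of 55487 gene IDs. Positions and exon lengths are from GENCODE M21 (GRCm38), promoters from RefSeq (GRCm38.p6). Each comparison was fitted on its own 12 libraries with edgeR 4.0.16 in R 4.3.3 (filterByExpr, TMM factors, robust quasi-likelihood test), with Benjamini-Hochberg adjustment over all genes tested and a threshold of 0.05. Folds are ratios of group mean CPM scaled by total counts. A group with 0 counts in every library was set to a floor of 3 counts per library, giving a bound; other folds of low genes carry exact 95% intervals, and intervals and floors cover counting error only. On simulated counts the test recovered 90% of changes of 1 log2 unit and 100% of those of 2 in the time comparison (16163 genes, 3.06% false among calls), and 92% and 100% for tunicamycin at 24 h (16490 genes, 9% false). The simulation changed 100 genes of each size, all above 1 CPM, with as many raised as lowered. It used the spread of the reference condition and the same level in both strains. It therefore does not cover comparisons in which most genes change, or genes near 0 counts.

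Alternatives were RLE factors, total counts, no mitochondrial genes, no filter, DESeq2 1.42.0, all 48 libraries in 1 fit, a replicate block, and leaving out each library. Replicate numbers were taken as pairs only where the deviations of same-numbered libraries correlated above 0.1 in all 6 pairs of a comparison; at most 5 of 6 did (tunicamycin at 6 h, 0.03 to 0.31, and normoxia against 6 h, 0.07 to 0.26), so they were not. The ligand genes and the gene lists were chosen with earlier results of these data known. Values by library, or by their range in some groups, are given for up to 14 members with the largest mean log2 fold change past the threshold and a group mean of at least 2 CPM, for members called in a drug comparison, and for the 3 with the smallest p in each strain difference and interaction; of the pathway lists, the 3 largest rises and falls with time and under normoxia against 24 h are named. Other members were described after their values were seen.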

Additional observations from a re-analysis of the deposited data

Results flagged for a closer look

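Responses of ligand genes differed between the strains by a test of the difference itself, given here as the DBA/2J log2 change minus the C57BL/6J change (edgeR interaction test, ± SE). With time in control slices, Cxcl1 differed by -1.4 ± 0.21 (adjusted p = 0.00626) and Cxcl2 by -1.52 ± 0.25 (adjusted p = 0.0125). In each strain all 24 h libraries of both genes lay above the 6 h libraries.

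Under normoxia against 24 h controls, Il1b differed by -1.47 ± 0.33 (adjusted p = 0.00757), Il34 by 1.15 ± 0.16 (adjusted p = 0.000307) and Il33 by -1.4 ± 0.31 (adjusted p = 0.00889). With all 48 libraries in one fit the adjusted p of Il33 was 0.264. Cxcl14 differed by -1.46 ± 0.37 (adjusted p = 0.0207) and Tnf by -1.95 ± 0.56 (adjusted p = 0.0268), and leaving out single libraries ended these calls in 2 and 5 of 12 cases.

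Under normoxia-hyperoxia against normoxia, Il1b differed by 1.77 ± 0.19 (adjusted p = 9.7e-05), Il16 by 1.26 ± 0.27 (adjusted p = 0.00615), Il34 by -1.15 ± 0.24 (adjusted p = 0.00615) and Cxcl16 by 0.52 ± 0.13 (adjusted p = 0.0109). Cxcl9 differed by 2.2 ± 0.65 (adjusted p = 0.0327), Cxcl14 by 1.57 ± 0.45 (adjusted p = 0.0339) and Tnf by 1.99 ± 0.56 (adjusted p = 0.0242), and these calls were lost in 8, 9 and 4 of 12 omissions. Il1b, Il34, Cxcl14 and Tnf appear in both oxygen comparisons, which share the normoxia libraries. Groups of 3 were not tested for single libraries that stand apart.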

How the results depend on the processing

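No ligand call changed direction under any alternative run. Of 223 ligand calls, 194 were kept in every omission of 1 library. With all 48 libraries in one fit, 24 of the 223 no longer passed, against at most 5, with total counts, in the other runs that left out no library. All genes called for cyclosporin A went from 0 to 45 with DESeq2 and 4 without the filter at 6 h, and to 20 with DESeq2, 3 without the filter and 3 with all 48 libraries in one fit at 24 h. For tunicamycin at 24 h, 233 became 536 with DESeq2 and 395 without the filter, and the 2 ligands became 1 with all 48 libraries. The strain interaction with time went from 117 genes to 332 with DESeq2 and 817 without the filter, and from 2 ligands to 4 and 9. Ligand interactions went from 7 to 11 without the filter for normoxia-hyperoxia against normoxia, and from 5 to 3 with all 48 libraries for normoxia against 24 h; strain differences under normoxia went from 14 to 9 with all 48 libraries. Some of these counts moved with the number of genes tested or libraries fitted; the cause was otherwise not tested.

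Leaving out 1 library gave 0 to 2 ligands and 78 to 344 genes for tunicamycin at 24 h, 0 to 1 genes for cyclosporin A at 6 h, 46 to 226 genes for the time interaction, 3 to 6 ligands and 1860 to 2700 genes for the normoxia interaction, 4 to 8 ligands for that of normoxia-hyperoxia, and 9 to 14 ligands between strains under normoxia. With the replicate block, the time interaction was called for 71 genes, and 1 ligand call was lost (Cxcl5 between strains at 6 h, adjusted p = 0.0601). Total-count scaling took the median of all genes from 0.05 to -0.22 (log2, normoxia against 24 h), and the share of higher calls from 48.1% to 60.4% with time, from 51.6% to 41.5% under normoxia and from 50% to 39% under normoxia-hyperoxia against 24 h. Genes with under 10 counts per library have wide intervals.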
